A study of Mus musculus with 48 samples.

Results

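Hepatic fatty acid and triglyceride synthesis was followed through 33 genes, which were found by symbol in the raw count tables among 40847 genes with counts. They cover the supply of acetyl-CoA and NADPH (6 genes), the building of the acyl chain (5), elongation and desaturation (9), activation of fatty acids (2), assembly of glycerolipids (8) and regulators (3). The livers came from male and female mice, 10 to 12 weeks old, that were given perfluorooctanesulfonic acid (PFOS), a persistent fluorinated surfactant, by oral gavage for 21 days on a diet with 18% of its energy as fat. All mice carried a CRISPR/Cas9 deletion of Cyp2b9, Cyp2b10 and Cyp2b13 on a C57Bl/6J background (Cyp2b-null), including the mice in the control groups. The hCYP2B6-Tg mice carried in addition a human CYP2B6/2A13/2F1 transgene bred onto that background; no source used here states which promoter drives it. Each sex and genotype received 0, 1 or 10 mg/kg/day (0-, 1- and 10-PFOS, with 0-PFOS as the gavaged control), which makes 12 groups of 4 mice and 48 libraries, each from the liver of 1 mouse.

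In the mammalian liver, citrate leaves the mitochondrion and is split to acetyl-CoA in the cytosol, acetyl-CoA carboxylase makes malonyl-CoA from it, and fatty acid synthase builds palmitate with the reducing power of NADPH. Acyl-CoA synthetases activate the chains, and elongases and desaturases lengthen and unsaturate them. Acyltransferases stack them on glycerol, and phosphatases remove a phosphate on the way, until triglyceride is formed. Feeding and insulin act on most of these genes through Srebf1, and glucose acts through Mlxipl, the gene of the carbohydrate response factor ChREBP, so their transcripts are known to follow the feeding state and the time of day of the animal.

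The libraries held 44416597 to 82615862 counts, and no pair of libraries of a group agreed within counting noise. The defining hepatocyte markers were present in all 48 libraries, at a summed level of 31520.2 to 110148 CPM, where CPM stands for a gene's counts relative to the scaled library total. That sum of 5 markers, most of it Alb, was lower at 10-PFOS in each sex and genotype. In 10-PFOS hCYP2B6-Tg females, for example, it was 33510.1 to 46872 CPM, against 80177 to 110148 CPM at 0-PFOS. Tat alone overlapped in all but Cyp2b-null males. It was at 437 to 1065 CPM in 10-PFOS Cyp2b-null females, against 614 to 1336 CPM at 0-PFOS. In hCYP2B6-Tg mice it was at 201 to 742 CPM against 413 to 893 CPM (females) and 402 to 564 CPM against 377 to 613 CPM (males). The sum of 5 Kupffer cell markers was also lower in females, at 87.5 to 147 CPM in 10-PFOS hCYP2B6-Tg females and 68.6 to 124 CPM in 10-PFOS Cyp2b-null females, against 207 to 322 and 221 to 258 CPM at 0-PFOS. In hCYP2B6-Tg males it was 50.7 to 65.8 CPM, against 82.0 to 120.1 CPM at 0-PFOS. Cyp2b-null males overlapped, at 46.2 to 58.5 CPM against 54.1 to 109.6 CPM. In hCYP2B6-Tg and Cyp2b-null females, 5 stellate cell markers summed to 160.5 to 172 and 121 to 148 CPM at 10-PFOS, against 188 to 261 and 195 to 260.4 CPM at 0-PFOS. In males of these genotypes the stellate sums overlapped, at 96.0 to 119 and 87.9 to 129 CPM, against 92.6 to 104 and 101 to 128 CPM. The sum of 5 lymphocyte markers was 0.744 to 2.76 CPM in 10-PFOS Cyp2b-null females, against 3.66 to 4.60 CPM at 0-PFOS. It overlapped in the other combinations, for example at 1.49 to 3.51 CPM against 2.72 to 6.58 CPM in hCYP2B6-Tg females. Of 5 adipocyte markers, Lep was at 0 in all male libraries, Adipoq and Plin1 did not exceed 0.126 CPM in them, and Retn did not exceed 0.138 CPM. Cfd, however, reached 1.36 CPM in 0-PFOS males, 8.76 CPM in 1-PFOS Cyp2b-null males and 11.8 CPM in 1-PFOS hCYP2B6-Tg males. In females the whole list summed to at most 0.133 CPM. In bulk liver, fewer cells of a type and less RNA per cell cannot be told apart. Counts assigned to the deleted genes were not 0: over both genotypes Cyp2b9 was at 19.9 to 39.0 CPM at 10-PFOS, against 0.497 to 3.49 CPM at 0-PFOS, and Cyp2b10 was at 9.54 to 22.7 CPM at 10-PFOS, against 0.303 to 1.71 CPM at 0-PFOS. The source of these counts was not tested.

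Promoters are shown for 5 members that stand for the patterns described below: Fasn, Gpam and Acly, whose 2 highest values among 10-PFOS Cyp2b-null females were in the same 2 mice, Elovl5, which fell at 10-PFOS in all 4 combinations of sex and genotype, and Mogat1, which rose in all 4. Each is the 250 bases before the transcription start listed by RefSeq on GRCm38.p6, an older build than the GRCm39 used for the counts, read 5′ to 3′ on the gene's own strand, with matches to 4 short motifs in capitals.
Fasn, chr11:120824548-120824797, minus strand: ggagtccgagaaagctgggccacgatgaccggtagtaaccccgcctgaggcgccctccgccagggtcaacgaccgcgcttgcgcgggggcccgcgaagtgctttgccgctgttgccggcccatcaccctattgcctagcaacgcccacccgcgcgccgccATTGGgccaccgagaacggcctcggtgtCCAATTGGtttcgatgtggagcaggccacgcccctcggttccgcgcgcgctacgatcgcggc
Gpam, chr19:55127239-55127488, minus strand, the first of the starts listed: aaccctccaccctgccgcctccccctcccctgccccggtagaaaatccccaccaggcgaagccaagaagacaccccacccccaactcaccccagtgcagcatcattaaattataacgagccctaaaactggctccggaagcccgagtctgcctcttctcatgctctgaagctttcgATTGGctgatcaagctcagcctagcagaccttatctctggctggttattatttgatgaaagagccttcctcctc
Acly, chr11:100528001-100528250, minus strand: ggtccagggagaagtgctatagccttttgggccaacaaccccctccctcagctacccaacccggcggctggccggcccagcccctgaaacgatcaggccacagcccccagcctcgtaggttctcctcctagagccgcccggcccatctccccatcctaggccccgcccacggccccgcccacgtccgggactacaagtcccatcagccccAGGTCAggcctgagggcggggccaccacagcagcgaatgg
Elovl5, chr9:77917115-77917364, plus strand: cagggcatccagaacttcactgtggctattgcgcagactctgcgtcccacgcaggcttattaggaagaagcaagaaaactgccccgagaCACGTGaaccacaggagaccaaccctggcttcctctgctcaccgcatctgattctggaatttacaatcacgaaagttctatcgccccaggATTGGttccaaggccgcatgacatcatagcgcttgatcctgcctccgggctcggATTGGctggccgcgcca
Mogat1, chr1:78510810-78511059, plus strand: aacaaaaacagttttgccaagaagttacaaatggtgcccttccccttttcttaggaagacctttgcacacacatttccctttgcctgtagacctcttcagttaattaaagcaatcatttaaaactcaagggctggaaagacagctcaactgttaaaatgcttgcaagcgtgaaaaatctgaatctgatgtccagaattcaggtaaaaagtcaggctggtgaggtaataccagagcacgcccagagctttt
The capitals mark CCAAT (read as ATTGG on the other strand), the E-box CACGTG, the nuclear receptor motif AGGTCA and the sterol element core TCACNCCAC, where N is any base, searched on both strands. Fasn held CCAAT at 3 places, from 90 to 55 bases before its start, 2 of which overlap in the run CCAATTGG. Gpam held 1 CCAAT match, Acly 1 AGGTCA match and Elovl5 1 CACGTG and 2 CCAAT matches, whereas no match to the 4 motifs was found in the Mogat1 window. Of the 33 members, 27 had a promoter entry, with 37 starts between them (Scd1, Scd2, Elovl3, Fads1, Dgat1 and Dgat2 had none). CCAAT lay before 43.2% of these 37 starts, against 33.8% of all 32851 starts in the table. The other shares were 10.8% against 6.02% for CACGTG, 16.2% against 14.0% for AGGTCA, and 2.70% against 1.05% for TCACNCCAC, whose single match was in Mlxipl. These are descriptions of letters in a window and carry no test.

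Each gene was tested with edgeR's quasi-likelihood test, and a member is said to rise or fall where its p-value, adjusted over all genes tested, was below 0.05. Fold changes are on the log2 scale with their standard error, and the 4 values given for a group belong to replicates 1 to 4. All 33 members passed the filter on low counts in both sexes, and 13193 genes were tested in females and 12594 in males. Mogat1 passed it only through treated groups, so its rises, counted among the members below, are no separate support in those counts. In 10-PFOS hCYP2B6-Tg females 5 members rose and 13 fell, whereas 22.3% and 24.5% of all genes tested did so. In 10-PFOS Cyp2b-null females 12 rose and 4 fell, against 19.1% and 17.8% of all genes. The 10-PFOS hCYP2B6-Tg males had 15 members higher and 6 lower, with 24.1% and 23.9% of all genes called in these directions. The 10-PFOS Cyp2b-null males had 10 members higher and 8 lower, with 22.5% and 21.6% of all genes. The median log2 fold change of the 33 members at 10-PFOS was -0.50 in hCYP2B6-Tg females, 0.39 in Cyp2b-null females, 0.26 in hCYP2B6-Tg males and -0.16 in Cyp2b-null males, while the median of all genes tested lay between -0.05 and -0.01.

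Across the 4 combinations of sex and genotype, 5 members rose in each at 10-PFOS (Elovl1, Agpat3, Lpin2, Dgat1 and, passing the filter only through treated groups, Mogat1) and 2 fell in each (Elovl2 and Elovl5), where 12.4% and 9.43% of the 12516 genes tested in both sexes did so. Another 8 rose in at least 1 combination and fell in none, 12 fell in at least 1 and rose in none, and Aacs and Fads1 were called in opposite directions in different groups. Scd1, Scd2, Srebf1 and Mlxipl passed the threshold in none of the 4. The heat map of fold changes shows these blocks by role.

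**Figure D1:**
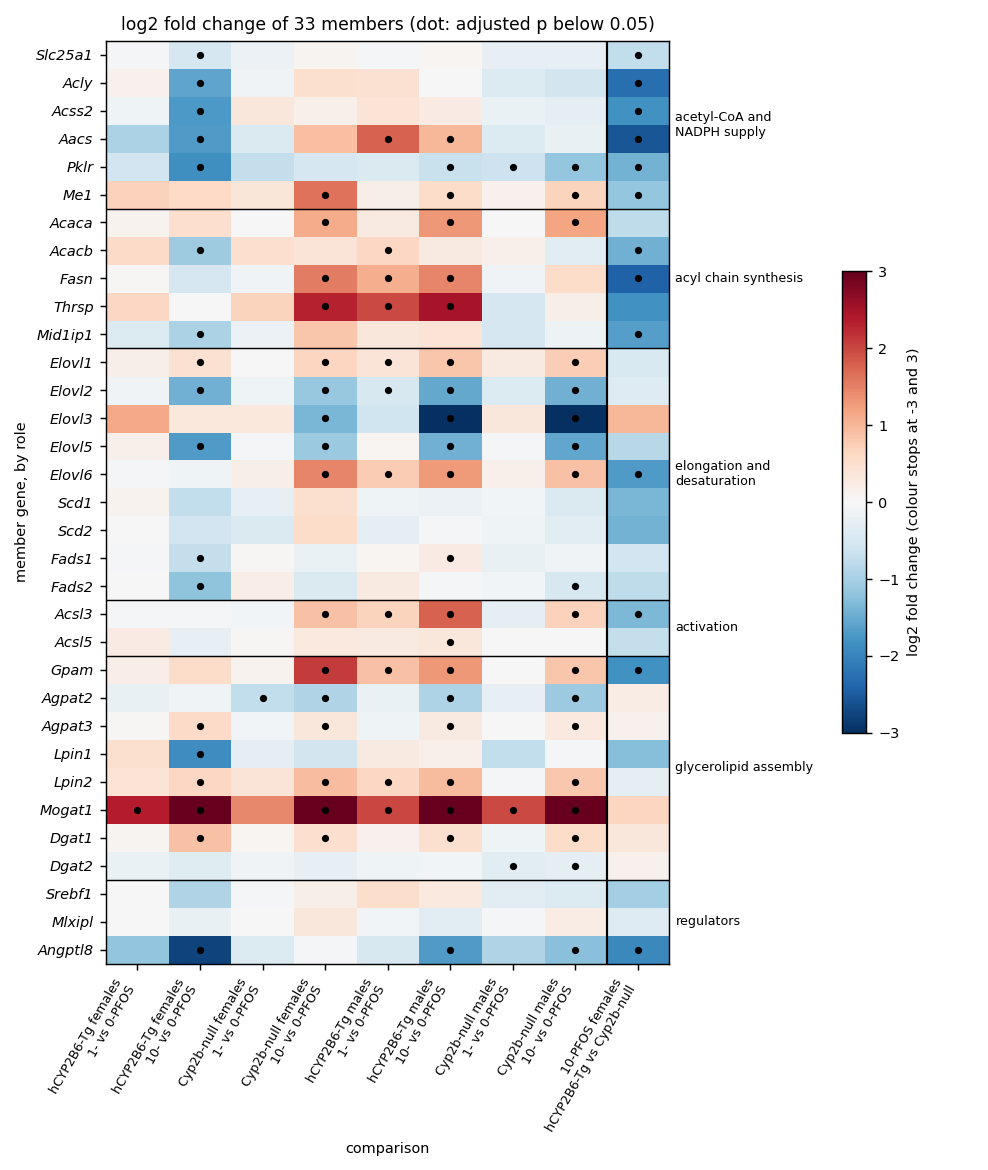
Heat map of the log2 fold change of the 33 members (rows, by role) in 8 comparisons of a PFOS dose with 0-PFOS and in the comparison of the genotypes in 10-PFOS females (columns); red is higher and blue lower in the first-named group, colours stop at -3 and 3, and dots mark an adjusted p below 0.05. The rows of Mogat1, Lpin2, Elovl2 and Elovl5 keep their colour across the 10-PFOS columns, whereas Acss2 and Aacs are dark blue in 10-PFOS hCYP2B6-Tg females and pale or red in the other 10-PFOS groups.

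The genes that supply acetyl-CoA fell in hCYP2B6-Tg females at 10-PFOS: 5 of the 6 members of this group were lower and none was higher, beside the 24.5% and 22.3% of all genes given above. Acly, ATP-citrate lyase, which splits citrate to acetyl-CoA, was at 58.3, 33.4, 59.5 and 102 CPM at 10-PFOS, against 286, 98.9, 176 and 197 CPM at 0-PFOS (log2 fold change -1.58 ± 0.46, adjusted p = 0.0073). Its highest 10-PFOS value lay just above the lowest 0-PFOS value, so the groups overlapped by 1 mouse on each side. Acss2, which makes acetyl-CoA from acetate, was at 66.9, 49.7, 67.9 and 138 CPM at 10-PFOS, against 426, 144, 267 and 236 CPM at 0-PFOS, without overlap (log2 fold change -1.73 ± 0.44, adjusted p = 0.0026). Aacs, which activates the ketone body acetoacetate for lipid synthesis, was at 9.36, 7.46, 5.65 and 7.52 CPM at 10-PFOS, against 35.8, 5.70, 28.8 and 27.9 CPM at 0-PFOS (log2 fold change -1.71 ± 0.58, adjusted p = 0.019). The 0-PFOS mouse with the lowest Aacs, replicate 2, was also the lowest of its group for 20 of the 33 members. The call of Aacs was lost without replicate 1 of the 0-PFOS group (adjusted p = 0.057) or replicate 3 of the 10-PFOS group (adjusted p = 0.053). Slc25a1, the mitochondrial citrate carrier, fell by less (log2 fold change -0.51 ± 0.18, adjusted p = 0.025), a call that was lost when any of 4 libraries was left out, with adjusted p of up to 0.094.

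In the other groups fewer of these genes were called. Acly was at 399, 162, 603 and 57.7 CPM at 10-PFOS, against 251, 262, 176 and 193 CPM at 0-PFOS in Cyp2b-null females (log2 fold change 0.47 ± 0.45, adjusted p = 0.44), a spread of values that held both the highest and the lowest mouse of the 2 groups. In 10-PFOS hCYP2B6-Tg males Aacs rose, at 14.2, 39.7, 28.7 and 25.2 CPM at 10-PFOS, against 12.9, 18.9, 16.1 and 6.25 CPM at 0-PFOS (log2 fold change 0.99 ± 0.39, adjusted p = 0.039), but this call was lost when any of 5 of the 8 libraries was left out, with adjusted p of up to 0.15. Acly and Acss2 passed the threshold in neither male genotype. Acly was, however, called lower in 10-PFOS Cyp2b-null males by DESeq2 (log2 fold change -0.55, adjusted p = 0.041) and by edgeR with no filter on low counts (adjusted p = 0.044). The same call appeared without replicate 1 or 3 of the controls or replicate 1 of the treated mice (adjusted p between 0.01 and 0.047).

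Pklr, the liver pyruvate kinase that feeds pyruvate into the pathway, fell in 3 of the 4 combinations. It was at 38.2, 19.0, 58.0 and 63.7 CPM at 10-PFOS, against 123, 124, 179 and 214 CPM at 0-PFOS in hCYP2B6-Tg females (log2 fold change -1.84 ± 0.35, adjusted p = 1.7e-04), at 61.3, 55.1, 61.7 and 51.9 CPM at 10-PFOS, against 114, 138, 109 and 150.0 CPM at 0-PFOS in Cyp2b-null males (log2 fold change -1.15 ± 0.16, adjusted p = 4.1e-06) and at 61.2, 71.6, 65.2 and 99.8 CPM at 10-PFOS, against 111, 112, 139 and 112 CPM at 0-PFOS in hCYP2B6-Tg males (log2 fold change -0.67 ± 0.16, adjusted p = 0.0015). None of these groups overlapped with its control. In Cyp2b-null females the 10-PFOS mice had 116, 72.1, 232 and 55.3 CPM and included a value above all 4 controls, at 168, 179, 167 and 157 CPM (log2 fold change -0.50 ± 0.34, adjusted p = 0.27).

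Me1, the cytosolic malic enzyme that yields NADPH, went the other way. It was at 603, 393, 854 and 171 CPM at 10-PFOS, against 179.8, 176, 158 and 134 CPM at 0-PFOS in Cyp2b-null females (log2 fold change 1.64 ± 0.33, adjusted p = 4.0e-04), where 3 of the 4 treated mice lay above every control and replicate 4 did not. In males it was at 227, 311, 307 and 356 CPM at 10-PFOS, against 199, 209, 209.6 and 204 CPM at 0-PFOS in the hCYP2B6-Tg genotype (log2 fold change 0.55 ± 0.15, adjusted p = 0.0037) and at 391, 387, 313 and 266 CPM at 10-PFOS, against 195, 201, 274 and 191 CPM at 0-PFOS in the Cyp2b-null genotype (log2 fold change 0.66 ± 0.15, adjusted p = 9.0e-04). In hCYP2B6-Tg females the values were 222, 133, 225 and 325 CPM at 10-PFOS, against 139, 149, 156 and 159 CPM at 0-PFOS (log2 fold change 0.59 ± 0.32, adjusted p = 0.14), with 1 treated mouse below all controls. When edgeR was fitted to these groups alone, Me1 was called higher there (adjusted p = 0.04).

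Of the 5 genes of acyl chain synthesis, 3 rose in Cyp2b-null females at 10-PFOS and none fell, whereas in hCYP2B6-Tg females none rose and 2 fell (19.1% and 17.8%, and 22.3% and 24.5%, of all genes rose and fell). Acaca, the carboxylase that makes malonyl-CoA for synthesis, rose in 3 combinations. In hCYP2B6-Tg males it was at 138, 188, 186 and 187 CPM at 10-PFOS, against 62.5, 83.2, 84.2 and 52.9 CPM at 0-PFOS (log2 fold change 1.30 ± 0.14, adjusted p = 3.7e-08). In Cyp2b-null males it was at 214, 156, 176 and 165 CPM at 10-PFOS, against 72.3, 79.3, 68.3 and 92.7 CPM at 0-PFOS (log2 fold change 1.19 ± 0.14, adjusted p = 1.8e-07), and in both male genotypes the lowest treated mouse was well above the highest control. Acaca was at 346, 200.4, 358 and 119.5 CPM at 10-PFOS, against 129.6, 139, 90.7 and 111 CPM at 0-PFOS in Cyp2b-null females (log2 fold change 1.12 ± 0.25, adjusted p = 0.0011) and at 148, 112, 155 and 191 CPM at 10-PFOS, against 127, 74.7, 118 and 104 CPM at 0-PFOS in hCYP2B6-Tg females (log2 fold change 0.51 ± 0.25, adjusted p = 0.093). With edgeR fitted to these hCYP2B6-Tg female groups alone, Acaca was called higher (adjusted p = 0.041). Acacb, the second carboxylase, whose malonyl-CoA is known for restraining entry of fatty acids into mitochondria, fell in hCYP2B6-Tg females, at 27.5, 57.6, 37.3 and 87.6 CPM at 10-PFOS, against 137, 71.3, 101 and 130.2 CPM at 0-PFOS (log2 fold change -1.07 ± 0.40, adjusted p = 0.032). That call was lost when any of 4 libraries was left out, with adjusted p of up to 0.11.

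Fasn, the fatty acid synthase, was at 1883, 565, 2903 and 195 CPM at 10-PFOS, against 562, 572, 295 and 494 CPM at 0-PFOS in Cyp2b-null females (log2 fold change 1.53 ± 0.55, adjusted p = 0.031). The treated mice ranged from below all controls (replicate 4) to well above them (replicates 1 and 3). Without replicate 3 the fold change was 0.88 with an adjusted p of 0.22, without replicate 1 it was 1.35 with 0.082, and the call was also lost without replicate 3 or 4 of the controls. In hCYP2B6-Tg females Fasn was at 230.4, 106, 255 and 443 CPM at 10-PFOS, against 589, 149.6, 368 and 352 CPM at 0-PFOS (log2 fold change -0.50 ± 0.54, adjusted p = 0.46), and these groups overlapped. In hCYP2B6-Tg males it was at 307, 649, 614 and 711 CPM at 10-PFOS, against 181, 256, 236 and 151 CPM at 0-PFOS without overlap (log2 fold change 1.47 ± 0.28, adjusted p = 1.3e-04), and in Cyp2b-null males at 677, 427, 483 and 399.7 CPM at 10-PFOS, against 251, 485, 166 and 444 CPM at 0-PFOS (log2 fold change 0.56 ± 0.27, adjusted p = 0.1).

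Thrsp, the thyroid hormone responsive lipogenic protein known as Spot14, rose in Cyp2b-null females and hCYP2B6-Tg males. It was at 333, 148, 711 and 65.2 CPM at 10-PFOS, against 81.8, 55.7, 63.8 and 54.4 CPM at 0-PFOS in Cyp2b-null females (log2 fold change 2.30 ± 0.62, adjusted p = 0.005), where replicate 4 lay within the controls and the fold change without replicate 3 was 1.51 (adjusted p = 0.048). In hCYP2B6-Tg males it was at 160.2, 272, 213 and 354 CPM at 10-PFOS, against 61.8, 54.5, 33.6 and 30.0 CPM at 0-PFOS (log2 fold change 2.47 ± 0.38, adjusted p = 1.0e-05), and every treated mouse exceeded every control. The groups also overlapped in the other combinations: hCYP2B6-Tg females had 75.9, 76.7, 79.9 and 123 CPM at 10-PFOS, against 79.4, 31.5, 100.1 and 145 CPM at 0-PFOS, and Cyp2b-null males 155, 128, 139 and 78.3 CPM at 10-PFOS, against 50.6, 171, 43.9 and 179 CPM at 0-PFOS (adjusted p = 1 and 0.73). Mid1ip1, the relative of Thrsp that promotes assembly of active carboxylase, was at 21.8, 7.81, 21.9 and 26.6 CPM at 10-PFOS, against 37.9, 25.9, 35.2 and 50.7 CPM at 0-PFOS in hCYP2B6-Tg females (log2 fold change -0.94 ± 0.37, adjusted p = 0.043). This call was lost when any of 6 of the 8 libraries was left out, with adjusted p of up to 0.14. In Cyp2b-null females Mid1ip1 was at 78.8, 41.3, 104 and 22.2 CPM at 10-PFOS, against 42.9, 27.7, 25.7 and 41.9 CPM at 0-PFOS (log2 fold change 0.83 ± 0.37, adjusted p = 0.083).

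**Figure D2:**
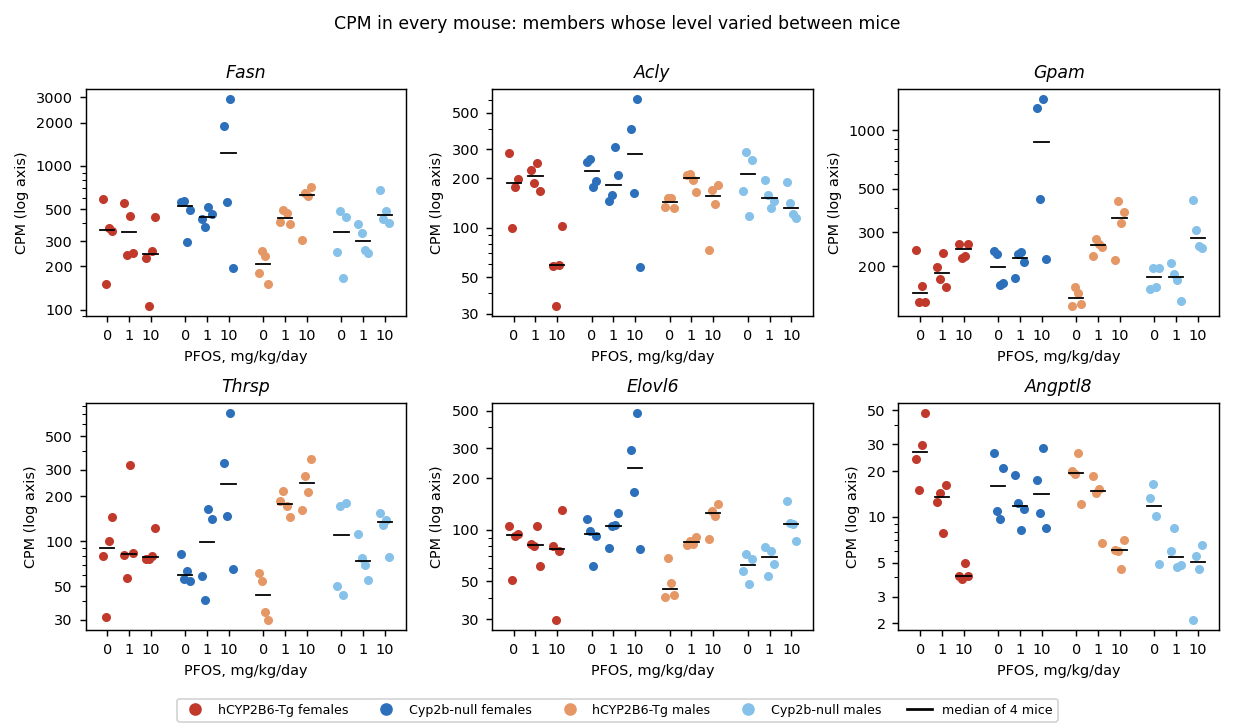
CPM of Fasn, Acly, Gpam, Thrsp, Elovl6 and Angptl8 in every mouse (log axis; each panel has its own range) by dose (0, 1 and 10 mg/kg/day) for each sex and genotype; points are mice and lines are medians of 4 mice. In 10-PFOS Cyp2b-null females Fasn runs from 195 to 2903 CPM between mice, whereas Angptl8 in 10-PFOS hCYP2B6-Tg females stays between 3.91 and 4.97 CPM.

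The elongases moved in both directions, and Elovl2 and Elovl5 fell in each combination. Elovl2, the elongase of long polyunsaturated chains that lead to docosahexaenoic acid, fell in all 4 combinations without any overlap. It was at 193, 176, 202 and 214 CPM at 10-PFOS, against 603, 505, 573 and 426 CPM at 0-PFOS in hCYP2B6-Tg females (log2 fold change -1.43 ± 0.14, adjusted p = 1.8e-08) and at 273, 239, 291 and 221 CPM at 10-PFOS, against 568, 630.2, 442 and 603 CPM at 0-PFOS in Cyp2b-null females (log2 fold change -1.13 ± 0.13, adjusted p = 6.2e-07). Male values were 139.9, 180.0, 139.8 and 164 CPM at 10-PFOS, against 347, 520.0, 422 and 509 CPM at 0-PFOS in the hCYP2B6-Tg genotype (log2 fold change -1.53 ± 0.13, adjusted p = 1.0e-09) and 156, 150.1, 145 and 168 CPM at 10-PFOS, against 479.8, 368, 465 and 371 CPM at 0-PFOS in the Cyp2b-null genotype (log2 fold change -1.44 ± 0.13, adjusted p = 2.6e-09). The values of the treated mice lay between 139.8 and 291 CPM over all these groups.

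Elovl5, which lengthens polyunsaturated chains one step earlier, fell in all 4 as well. It was at 176, 97.9, 107 and 289.7 CPM at 10-PFOS, against 524, 532, 629 and 482 CPM at 0-PFOS in hCYP2B6-Tg females (log2 fold change -1.69 ± 0.30, adjusted p = 8.5e-05) and at 274, 313, 461 and 156 CPM at 10-PFOS, against 813, 797, 476 and 527 CPM at 0-PFOS in Cyp2b-null females (log2 fold change -1.12 ± 0.30, adjusted p = 0.0047). In males it was at 119, 179, 189.8 and 190.0 CPM at 10-PFOS, against 498, 446, 423 and 479.5 CPM at 0-PFOS in hCYP2B6-Tg mice (log2 fold change -1.45 ± 0.14, adjusted p = 9.6e-09) and at 223, 217, 177 and 156 CPM at 10-PFOS, against 507, 606, 583 and 581 CPM at 0-PFOS in Cyp2b-null mice (log2 fold change -1.56 ± 0.14, adjusted p = 3.5e-09). No treated group overlapped with its control.

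Elovl3, an elongase of saturated and monounsaturated chains whose hepatic level is known to be male-biased in mice, was low in 10-PFOS male livers. It was at 5.38, 2.61, 11.0 and 6.70 CPM at 10-PFOS, against 274, 258, 169 and 264 CPM at 0-PFOS in hCYP2B6-Tg males (log2 fold change -5.22 ± 0.38, adjusted p = 7.7e-11) and at 9.78, 8.53, 11.1 and 4.74 CPM at 10-PFOS, against 219.7, 339, 162 and 243 CPM at 0-PFOS in Cyp2b-null males (log2 fold change -4.82 ± 0.37, adjusted p = 2.4e-10). At 1-PFOS it was at 218, 154, 84.6 and 186 CPM in hCYP2B6-Tg and 270.0, 364, 279 and 315 CPM in Cyp2b-null males. The 10-PFOS falls were the largest of any member in any of the 9 comparisons, and they brought male levels near those of untreated females, which had 6.92, 2.85, 3.96 and 1.26 CPM in the hCYP2B6-Tg and 7.01, 3.22, 8.32 and 5.21 CPM in the Cyp2b-null genotype (levels of the sexes were scaled separately). In Cyp2b-null females Elovl3 fell from this low level, at 1.05, 1.67, 3.35 and 3.08 CPM at 10-PFOS, against 7.01, 3.22, 8.32 and 5.21 CPM at 0-PFOS (log2 fold change -1.37 ± 0.42, adjusted p = 0.012), a call that was lost without replicate 1 of the treated mice (adjusted p = 0.051). In hCYP2B6-Tg females it was at 5.57, 5.93, 2.32 and 4.62 CPM at 10-PFOS, against 6.92, 2.85, 3.96 and 1.26 CPM at 0-PFOS (log2 fold change 0.31 ± 0.41, adjusted p = 0.56).

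Elovl6, which lengthens palmitate to stearate, rose in 3 combinations. In Cyp2b-null females it was at 294, 166, 482 and 77.5 CPM at 10-PFOS, against 116, 97.9, 61.1 and 92.4 CPM at 0-PFOS (log2 fold change 1.47 ± 0.41, adjusted p = 0.0062), and without replicate 3 of the treated mice the adjusted p was 0.056. In males it was at 88.5, 129.7, 121 and 142 CPM at 10-PFOS, against 40.4, 68.7, 48.6 and 41.6 CPM at 0-PFOS in hCYP2B6-Tg mice (log2 fold change 1.27 ± 0.18, adjusted p = 2.9e-06) and at 147, 109, 108 and 86.4 CPM at 10-PFOS, against 57.0, 72.1, 48.3 and 67.1 CPM at 0-PFOS in Cyp2b-null mice (log2 fold change 0.88 ± 0.18, adjusted p = 2.7e-04). The hCYP2B6-Tg females had 80.3, 29.7, 75.0 and 130.1 CPM at 10-PFOS, against 105, 50.7, 92.3 and 94.9 CPM at 0-PFOS (log2 fold change -0.12 ± 0.40, adjusted p = 0.82), with overlap. Elovl1, an elongase of very long saturated chains, rose in all 4 combinations by 0.46 to 0.84 on the log2 scale. Its smallest rise, in hCYP2B6-Tg females, was lost without replicate 2 of the controls (adjusted p = 0.056) or replicate 1 of the treated mice (adjusted p = 0.051).

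Fads2 and Fads1, the desaturases that act in turn on polyunsaturated chains, fell in hCYP2B6-Tg females. Fads2 was at 238, 97.9, 162 and 357 CPM at 10-PFOS, against 611, 346, 528 and 489.7 CPM at 0-PFOS there (log2 fold change -1.21 ± 0.31, adjusted p = 0.0026), with 1 overlapping mouse, and it also fell in Cyp2b-null males (log2 fold change -0.47 ± 0.16, adjusted p = 0.019). The fall in males was lost without replicate 4 of the treated males (adjusted p = 0.067). Fads1 fell by 0.71 in hCYP2B6-Tg females (adjusted p = 0.0096) and was 0.24 higher in hCYP2B6-Tg males (adjusted p = 0.037), a rise that was lost when any of 6 of the 8 libraries was left out, with adjusted p of up to 0.19. Scd1 and Scd2, the stearoyl-CoA desaturases, passed no threshold at 10-PFOS against 0-PFOS, with fold changes between -0.74 and 0.55 and adjusted p of 0.12 or more. Between the female genotypes at 10-PFOS, Scd1 (-1.37) and Scd2 (-1.41) missed the threshold (adjusted p = 0.073 and 0.064) but were called by edgeR's likelihood ratio test (adjusted p = 0.03 and 0.024) and by DESeq2 (0.048 and 0.039). These paralogs share sequence, so reads may have been split between them.

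Both activating synthetases rose in hCYP2B6-Tg males. Acsl3, a long-chain acyl-CoA synthetase found on forming lipid droplets, was at 26.0, 51.7, 31.8 and 43.5 CPM at 10-PFOS, against 12.0, 11.9, 9.63 and 11.5 CPM at 0-PFOS there (log2 fold change 1.77 ± 0.19, adjusted p = 4.4e-08) and at 38.5, 31.8, 30.6 and 30.1 CPM at 10-PFOS, against 16.7, 24.9, 13.8 and 25.4 CPM at 0-PFOS in Cyp2b-null males (log2 fold change 0.70 ± 0.18, adjusted p = 0.0033), without overlap in either. In Cyp2b-null females it was at 80.9, 42.5, 66.6 and 15.9 CPM at 10-PFOS, against 30.4, 31.0, 24.1 and 26.4 CPM at 0-PFOS (log2 fold change 0.88 ± 0.34, adjusted p = 0.043), and the lowest of the 8 values was that of a treated mouse. The female call was lost when any of 6 of the 8 libraries was left out, with adjusted p of up to 0.20. In hCYP2B6-Tg females Acsl3 was at 23.1, 9.70, 21.3 and 27.4 CPM at 10-PFOS, against 31.7, 15.1, 22.6 and 16.0 CPM at 0-PFOS (log2 fold change -0.07 ± 0.34, adjusted p = 0.89). Acsl5, the other synthetase, rose by 0.33 in hCYP2B6-Tg males (adjusted p = 0.021), which was lost when any of 4 libraries was left out, with adjusted p of up to 0.093.

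Among the 8 genes of glycerolipid assembly, 4 rose in all 4 combinations, where 12.4% of the genes tested in both sexes did so, and Agpat2 fell in 3. Mogat1 is 1 of the 4 and, given how it passed the filter, no separate support in that count. Mogat1, a monoacylglycerol acyltransferase that makes diacylglycerol, was barely counted at 0-PFOS, with 2 to 50 counts per library, and it passed the filter only through treated groups. Most deposited counts were even, so both mates of a read pair may have been counted, and these would then be fewer pairs still. It was at 6.27, 4.26, 5.33 and 7.52 CPM at 10-PFOS, against 0.0414, 0.405, 0.123 and 0.0663 CPM at 0-PFOS in hCYP2B6-Tg females (log2 fold change 5.14 ± 0.48, adjusted p = 1.7e-08) and at 2.45, 5.31, 5.04 and 2.13 CPM at 10-PFOS, against 0.349, 0.247, 0.428 and 0.294 CPM at 0-PFOS in Cyp2b-null females (log2 fold change 3.49 ± 0.44, adjusted p = 1.5e-06). In males it was at 5.10, 5.46, 8.86 and 3.82 CPM at 10-PFOS, against 0.495, 0.580, 0.393 and 0.403 CPM at 0-PFOS in hCYP2B6-Tg mice (log2 fold change 3.63 ± 0.49, adjusted p = 1.5e-06) and at 5.27, 3.39, 8.81 and 1.56 CPM at 10-PFOS, against 0.190, 0.789, 0.636 and 0.273 CPM at 0-PFOS in Cyp2b-null mice (log2 fold change 3.33 ± 0.48, adjusted p = 5.6e-06). Every treated mouse was above every control, and with no filter on low counts Mogat1 was called in all 4 as well (adjusted p between 5.4e-10 and 1.7e-07). The size of these fold changes rests on few control counts: in hCYP2B6-Tg females, without replicate 2 of the controls it was 6.21.

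Gpam, the mitochondrial acyltransferase that commits acyl-CoA to glycerolipid, rose in 3 combinations. It was at 1309, 442, 1444 and 217 CPM at 10-PFOS, against 241, 232, 159.6 and 165 CPM at 0-PFOS in Cyp2b-null females (log2 fold change 2.10 ± 0.37, adjusted p = 1.0e-04), where replicate 4 lay within the controls. It was at 215, 435, 333 and 380.0 CPM at 10-PFOS, against 125, 156, 146 and 128 CPM at 0-PFOS in hCYP2B6-Tg males (log2 fold change 1.30 ± 0.19, adjusted p = 3.7e-06) and at 438, 307, 254 and 249 CPM at 10-PFOS, against 152, 196, 156 and 195 CPM at 0-PFOS in Cyp2b-null males (log2 fold change 0.84 ± 0.18, adjusted p = 7.0e-04), without overlap. In hCYP2B6-Tg females, at 262, 221, 227 and 262 CPM at 10-PFOS, against 242, 131, 159 and 131 CPM at 0-PFOS, it did not pass the threshold (log2 fold change 0.56 ± 0.36, adjusted p = 0.21). When edgeR was fitted to these groups alone, Gpam was called higher there (adjusted p = 0.033).

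Agpat2, the acyltransferase that turns lysophosphatidic into phosphatidic acid, fell in 3 combinations. It was at 71.3, 67.7, 93.9 and 47.1 CPM at 10-PFOS, against 138, 133, 150.3 and 105 CPM at 0-PFOS in Cyp2b-null females (log2 fold change -0.91 ± 0.17, adjusted p = 2.2e-04), at 62.6, 70.1, 55.0 and 52.1 CPM at 10-PFOS, against 119, 164, 118 and 111 CPM at 0-PFOS in Cyp2b-null males (log2 fold change -1.09 ± 0.14, adjusted p = 1.0e-06) and at 51.2, 62.9, 52.0 and 53.7 CPM at 10-PFOS, against 106, 112, 89.2 and 110.5 CPM at 0-PFOS in hCYP2B6-Tg males (log2 fold change -0.93 ± 0.14, adjusted p = 8.4e-06). These 3 pairs of groups did not overlap. In hCYP2B6-Tg females it was at 88.5, 98.1, 74.3 and 65.8 CPM at 10-PFOS, against 97.8, 88.9, 90.3 and 72.0 CPM at 0-PFOS (log2 fold change -0.10 ± 0.17, adjusted p = 0.67). Its relative Agpat3 rose in all 4 combinations, by 0.58 in hCYP2B6-Tg females and by 0.26 to 0.34 in the others. With no filter on low counts 2 of these 4 calls were lost, in Cyp2b-null females (adjusted p = 0.058) and hCYP2B6-Tg males (adjusted p = 0.06).

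Lpin1, a phosphatidic acid phosphatase, was at 14.8, 32.9, 18.7 and 18.3 CPM at 10-PFOS, against 62.6, 51.4, 107 and 87.7 CPM at 0-PFOS in hCYP2B6-Tg females (log2 fold change -1.87 ± 0.47, adjusted p = 0.0023), without overlap, and passed no threshold elsewhere. Lpin2, which catalyses the same step, rose in all 4 combinations, by 0.61 in hCYP2B6-Tg females, 0.93 in Cyp2b-null females, 0.94 in hCYP2B6-Tg males and 0.82 in Cyp2b-null males. Dgat1, an enzyme of the last step to triglyceride, rose by 0.88 in hCYP2B6-Tg females (adjusted p = 2.4e-06) and by 0.48 to 0.54 in the other 3. Dgat2, which catalyses that step too, fell by 0.29 in Cyp2b-null males (adjusted p = 0.016), a call that was lost without replicate 4 of the treated mice (adjusted p = 0.077).

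**Figure D3:**
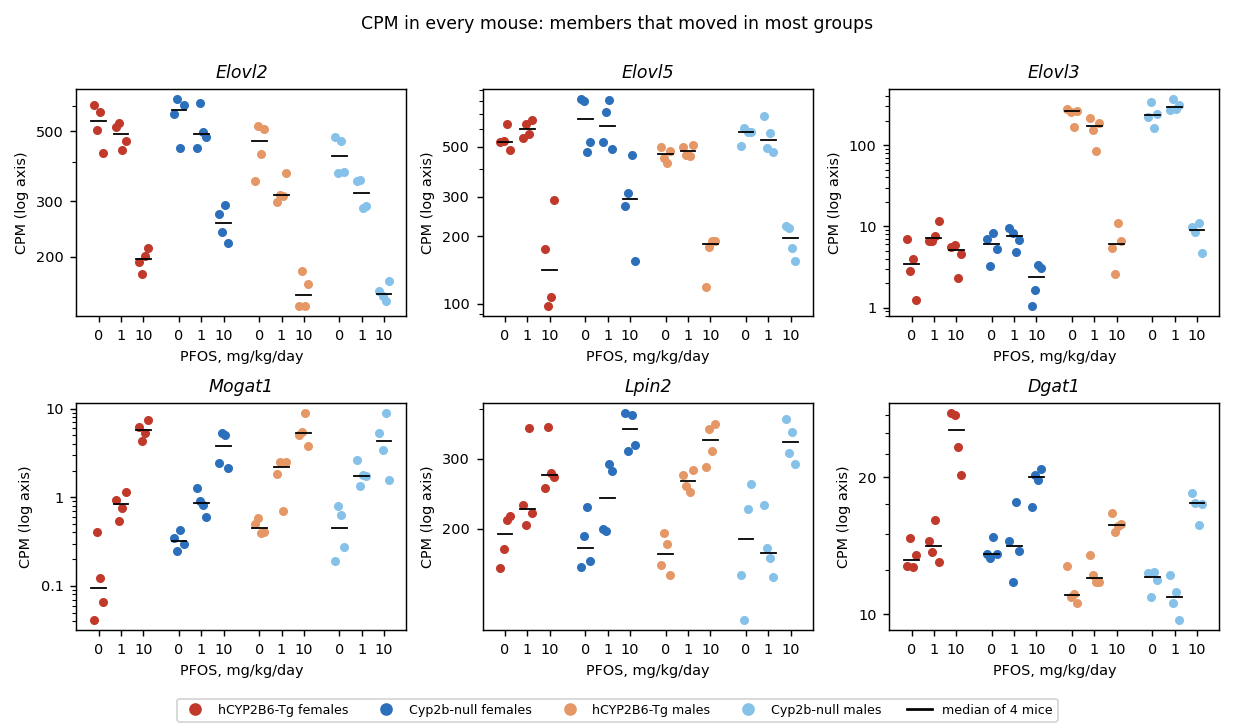
CPM of Elovl2, Elovl5, Elovl3, Mogat1, Lpin2 and Dgat1 in every mouse (log axis; each panel has its own range) by dose (0, 1 and 10 mg/kg/day) for each sex and genotype; points are mice and lines are medians of 4 mice. At 10-PFOS Elovl2 lies between 139.8 and 291 CPM in all 16 mice, and Elovl3 in males drops to at most 11.1 CPM.

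Among the regulators, the transcripts of the factors themselves did not pass the threshold in any of the 9 comparisons. Srebf1, the gene of the insulin-responsive sterol regulatory factor, was at 132, 27.8, 76.8 and 136 CPM at 10-PFOS, against 196, 106, 181 and 219 CPM at 0-PFOS in hCYP2B6-Tg females (log2 fold change -0.91 ± 0.38, adjusted p = 0.051), and it was called there by the likelihood ratio test (adjusted p = 0.035), with the stricter filter (0.046), with the replicate block (0.021) and without any 1 of 3 of the libraries (0.025 to 0.033). At 1-PFOS in hCYP2B6-Tg males it was 0.53 ± 0.19 higher (adjusted p = 0.059), a difference called by the likelihood ratio test (adjusted p = 0.04), DESeq2 (0.037) and the fit of these groups alone (0.013). It was at 262, 146, 283 and 65.3 CPM at 10-PFOS, against 183, 171, 149 and 168 CPM at 0-PFOS in Cyp2b-null females (log2 fold change 0.17 ± 0.37, adjusted p = 0.76), with replicates 2 and 4 below all controls and replicates 1 and 3 above them. Male 10-PFOS livers had 85.9, 142, 126 and 131 CPM (hCYP2B6-Tg) and 112, 81.0, 81.1 and 68.9 CPM (Cyp2b-null), against 117, 100.1, 87.2 and 91.5 and 90.0, 159, 86.8 and 116 CPM at 0-PFOS, with overlap in both, and in Cyp2b-null males Srebf1 was called lower without any 1 of 3 of the libraries (adjusted p between 0.029 and 0.047). Mlxipl was at 122, 81.1, 108 and 121 CPM at 10-PFOS, against 131, 104, 106 and 161 CPM at 0-PFOS in hCYP2B6-Tg females and at 141, 116, 198 and 109 CPM at 10-PFOS, against 128, 97.4, 99.8 and 118 CPM at 0-PFOS in Cyp2b-null females (adjusted p = 0.35 and 0.16). In males Mlxipl was at 83.7, 79.2, 107 and 111 CPM at 10-PFOS, against 105, 113, 132 and 121 CPM at 0-PFOS in the hCYP2B6-Tg and at 126, 112, 123 and 104 CPM at 10-PFOS, against 93.9, 116, 70.4 and 114 CPM at 0-PFOS in the Cyp2b-null genotype (adjusted p = 0.073 and 0.18).

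Angptl8, a secreted protein induced by feeding that restrains lipoprotein lipase, fell in 3 combinations. In hCYP2B6-Tg females it was at 4.09, 3.91, 4.97 and 4.09 CPM at 10-PFOS, against 23.9, 14.9, 29.5 and 47.9 CPM at 0-PFOS (log2 fold change -2.77 ± 0.40, adjusted p = 6.7e-06), and the treated mice were close together and far below the controls. In males it was at 6.06, 5.98, 4.54 and 7.10 CPM at 10-PFOS, against 19.9, 19.0, 26.1 and 12.1 CPM at 0-PFOS in hCYP2B6-Tg mice (log2 fold change -1.71 ± 0.34, adjusted p = 2.3e-04) and at 2.11, 5.52, 4.55 and 6.53 CPM at 10-PFOS, against 13.3, 16.4, 10.2 and 4.92 CPM at 0-PFOS in Cyp2b-null mice (log2 fold change -1.26 ± 0.34, adjusted p = 0.0045), with overlap in Cyp2b-null males only. In Cyp2b-null females it was at 17.5, 10.6, 28.3 and 8.45 CPM at 10-PFOS, against 26.1, 10.9, 9.62 and 21.0 CPM at 0-PFOS (log2 fold change -0.06 ± 0.37, adjusted p = 0.92).

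Markers of the clock moved in some of these comparisons. The summed level of 8 clock genes that peak by day was 183 to 269 CPM in 10-PFOS Cyp2b-null females, against 108 to 179 CPM at 0-PFOS, and 4 genes that peak at dawn summed to 35.8 to 58.1 CPM, against 78.4 to 98.1 CPM. In hCYP2B6-Tg females both sums overlapped between 10-PFOS (261 to 294 and 35.7 to 55.2 CPM) and 0-PFOS (222 to 472 and 32.7 to 84.2 CPM). In males the dawn genes summed to 21.9 to 30.8 CPM (hCYP2B6-Tg) and 30.7 to 42.3 CPM (Cyp2b-null) at 10-PFOS, against 64.0 to 79.0 and 70.9 to 93.3 CPM at 0-PFOS. The day genes overlapped in both male genotypes, at 197 to 256 CPM (hCYP2B6-Tg) and 172 to 215 CPM (Cyp2b-null) at 10-PFOS, against 123 to 204 and 77.0 to 175 CPM at 0-PFOS. The part of these shifts, and of the lower hepatocyte and Kupffer cell markers, in the changes of the members was not tested.

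At 1-PFOS the hCYP2B6-Tg males had the most calls. In this group 10 members rose and 1 fell, and 8.72% and 5.98% of all genes did so. Thrsp was at 184, 215, 171 and 145 CPM at 1-PFOS, against 61.8, 54.5, 33.6 and 30.0 CPM at 0-PFOS (log2 fold change 1.99 ± 0.37, adjusted p = 9.5e-04), and Aacs was at 41.6, 27.0, 59.2 and 55.7 CPM at 1-PFOS, against 12.9, 18.9, 16.1 and 6.25 CPM at 0-PFOS (log2 fold change 1.76 ± 0.40, adjusted p = 0.0043). Fasn was at 406, 489.8, 469 and 396 CPM at 1-PFOS, against 181, 256, 236 and 151 CPM at 0-PFOS (log2 fold change 1.09 ± 0.28, adjusted p = 0.0093). Each of the 4 treated mice exceeded each control for these 3 genes. Mogat1 was at 1.84, 2.52, 0.701 and 2.51 CPM at 1-PFOS, against 0.495, 0.580, 0.393 and 0.403 CPM at 0-PFOS (log2 fold change 2.01 ± 0.48, adjusted p = 0.006), and Gpam was at 226, 278, 260.2 and 252 CPM at 1-PFOS, against 125, 156, 146 and 128 CPM at 0-PFOS (log2 fold change 0.87 ± 0.18, adjusted p = 0.0026). Elovl6 (0.77 ± 0.18), Acsl3 (0.66 ± 0.18), Acacb (0.63 ± 0.16), Lpin2 (0.61 ± 0.17) and Elovl1 (0.38 ± 0.10) also rose, and Elovl2 fell (-0.47 ± 0.13). Over the 33 members, 13 were higher in all 4 treated mice than in all 4 controls and 2 were lower in this way, which held for 11.2% and 8.56% of all genes. Whichever library was left out, 8 of the 11 calls remained, and those of Elovl1, Acsl3 and Lpin2 were lost without 1 to 3 of the libraries, with adjusted p of up to 0.066. Set against 0-PFOS Cyp2b-null males, the controls of this comparison had 27 of the 33 log2 differences below 0 and 6 above (median -0.16). None passed edgeR's threshold, and 9 had an unadjusted p below 0.05 (6.84% of all genes). Median Thrsp was 44.0 CPM in these controls and 111 CPM in 0-PFOS Cyp2b-null males, and median Fasn was 208 and 348 CPM. The part of these control levels in the rises of hCYP2B6-Tg males was not tested.

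The clock markers moved with this comparison too. The genes that peak by day summed to 273 to 302 CPM in 1-PFOS hCYP2B6-Tg males, against 123 to 204 CPM at 0-PFOS, and those that peak at dawn summed to 35.4 to 47.3 CPM, against 64.0 to 79.0 CPM. The 5 adipocyte markers summed to 0.736 to 11.8 CPM in 1-PFOS hCYP2B6-Tg males, against 0.0672 to 1.09 CPM at 0-PFOS, most of it Cfd (median 4.98 against 0.458 CPM), and Cfd reached 8.76 CPM in 1-PFOS Cyp2b-null males. The part of these markers in the rise of the members was not tested.

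The other groups showed few calls at 1-PFOS. In Cyp2b-null males Mogat1 rose, at 2.66, 1.35, 1.77 and 1.73 CPM at 1-PFOS, against 0.190, 0.789, 0.636 and 0.273 CPM at 0-PFOS (log2 fold change 1.99 ± 0.48, adjusted p = 0.019), and Pklr (log2 fold change -0.62 ± 0.16, adjusted p = 0.03) and Dgat2 (log2 fold change -0.35 ± 0.10, adjusted p = 0.04) fell, where 2.32% and 1.30% of all genes rose and fell. None of these 3 calls was kept under every omission: without replicate 4 of the controls 0 members were called, and without replicate 1 or 2 of the controls or replicate 3 or 4 of the treated mice 1 was. In hCYP2B6-Tg females Mogat1 was the 1 member that rose (1.69% of all genes rose), at 0.933, 0.544, 0.756 and 1.14 CPM at 1-PFOS, against 0.0414, 0.405, 0.123 and 0.0663 CPM at 0-PFOS (log2 fold change 2.36 ± 0.47, adjusted p = 0.0065), and none fell (0.584% of all genes). Without replicate 2 of the controls its fold change was 3.43 and 2 members were called. In Cyp2b-null females Agpat2 was the 1 member that fell (0.265% of all genes fell), at 89.2, 61.2, 84.1 and 82.0 CPM at 1-PFOS, against 138, 133, 150.3 and 105 CPM at 0-PFOS without overlap (log2 fold change -0.73 ± 0.17, adjusted p = 0.047), and none rose (0.432% of all genes). The call was lost without any 1 of 7 of the 8 libraries, with adjusted p of up to 0.17. Mogat1 in 1-PFOS Cyp2b-null females was at 1.27, 0.909, 0.822 and 0.606 CPM at 1-PFOS, against 0.349, 0.247, 0.428 and 0.294 CPM at 0-PFOS, also without overlap (log2 fold change 1.43 ± 0.43, adjusted p = 0.13).

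The female genotypes were then compared at 10-PFOS, the same dose by gavage. The study reported higher PFOS concentrations in the liver and serum of the hCYP2B6-Tg females at this dose, and greater mortality among them. The part of PFOS retention and toxicity in the differences between these 2 groups was not tested. In hCYP2B6-Tg females 13 members were lower than in Cyp2b-null females and none was higher, where 2.24% of all genes tested were lower and 1.35% higher. The median log2 difference of the 33 members was -1.02, against 0.01 for all genes tested, and 27 of the 33 were below 0. Fasn was at 230.4, 106, 255 and 443 CPM in hCYP2B6-Tg females, against 1883, 565, 2903 and 195 CPM in Cyp2b-null females (log2 fold change -2.42 ± 0.56, adjusted p = 0.024), Acly at 58.3, 33.4, 59.5 and 102 CPM in hCYP2B6-Tg females, against 399, 162, 603 and 57.7 CPM in Cyp2b-null females (log2 fold change -2.27 ± 0.47, adjusted p = 0.016) and Gpam at 262, 221, 227 and 262 CPM in hCYP2B6-Tg females, against 1309, 442, 1444 and 217 CPM in Cyp2b-null females (log2 fold change -1.81 ± 0.37, adjusted p = 0.016). In each of these, replicates 1 and 3 of the Cyp2b-null females were far above the hCYP2B6-Tg females, whereas replicate 4 was among them (below them for Gpam). Aacs was at 9.36, 7.46, 5.65 and 7.52 CPM in hCYP2B6-Tg females, against 80.4, 25.7, 64.1 and 7.30 CPM in Cyp2b-null females (log2 fold change -2.56 ± 0.59, adjusted p = 0.023), and Angptl8 was at 4.09, 3.91, 4.97 and 4.09 CPM in hCYP2B6-Tg females, against 17.5, 10.6, 28.3 and 8.45 CPM in Cyp2b-null females (log2 fold change -1.93 ± 0.39, adjusted p = 0.016). Angptl8 was 1 of 4 members for which all 4 hCYP2B6-Tg females were below all 4 Cyp2b-null females, an order found for 4.51% of all genes. Acss2 (-1.81 ± 0.44), Elovl6 (-1.69 ± 0.41), Mid1ip1 (-1.66 ± 0.38), Acacb (-1.43 ± 0.40), Pklr (-1.41 ± 0.35), Acsl3 (-1.34 ± 0.34), Me1 (-1.16 ± 0.32) and Slc25a1 (-0.75 ± 0.18) were the others called, with adjusted p between 0.022 and 0.047.

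The mice within these 2 groups differed widely. The median over the 33 members of the ratio between the highest and the lowest mouse of a group was 2.22 in 10-PFOS hCYP2B6-Tg females and 3.19 in 10-PFOS Cyp2b-null females, against 1.23 to 1.85 in the other 10 groups. Among Cyp2b-null females, replicate 4 was the lowest mouse for 29 of the 33 members and replicate 3 the highest for 24. Among hCYP2B6-Tg females, replicate 2 was the lowest for 23 and replicate 4 the highest for 22. The heat map of single mice shows replicate 4 of the Cyp2b-null females without the red of replicates 1 and 3 in Fasn, Elovl6 and Gpam.

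**Figure D4:**
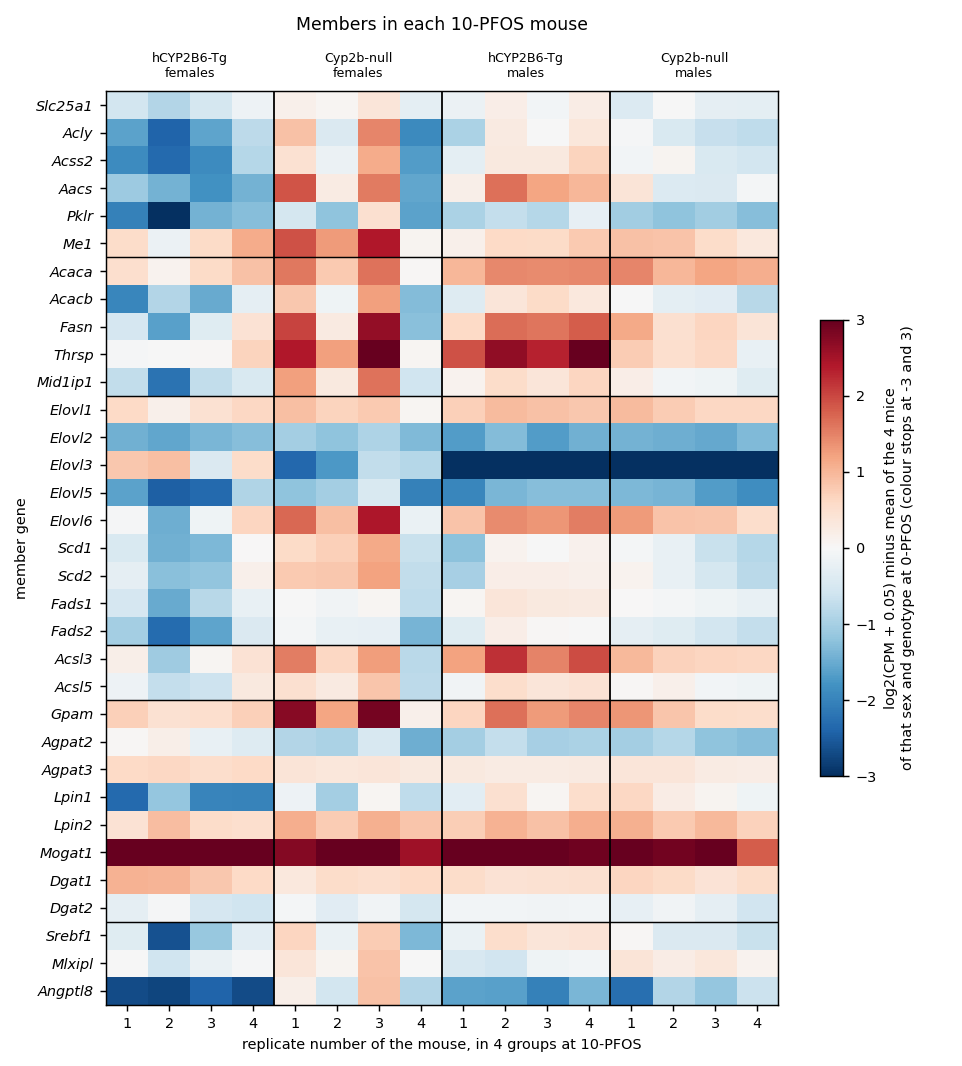
Heat map of each 10-PFOS mouse (columns, replicates 1 to 4 in 4 groups) for the 33 members (rows, by role); the colour is log2(CPM + 0.05) minus the mean of the 4 mice of that sex and genotype at 0-PFOS, and colours stop at -3 and 3. The Cyp2b-null female replicate 4 lacks the red of replicates 1 and 3 in Fasn, Elovl6 and Gpam, and the Elovl3 row is blue in all 8 males.

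The 13 calls depended on single mice. Without replicate 1 or 3 of the Cyp2b-null females, or without replicate 2 of the hCYP2B6-Tg females, 0 members were called. Without replicate 1 or 3 of the hCYP2B6-Tg females 3 and 4 were called, and without replicate 2 of the Cyp2b-null females 9 were. In the other direction, 24 were called without replicate 4 of the Cyp2b-null females, 20 without replicate 4 of the hCYP2B6-Tg females, and 17 without both replicate 4 of the Cyp2b-null and replicate 2 of the hCYP2B6-Tg females, an omission chosen after the data were seen. A fit of these 8 libraries alone called 0 members, with 26 at an unadjusted p below 0.05, as 18.5% of all genes were. The likelihood ratio test called 17 and DESeq2 18, with the 13 among them in both. For Fasn the fold change over the single omissions ranged from -2.81 to -1.77, with adjusted p of up to 0.1, and for Gpam from -2.13 to -1.43, with adjusted p of up to 0.07. The direction of all 13 was the same under every omission. The day-peaking clock genes summed to 261 to 294 CPM in 10-PFOS hCYP2B6-Tg females and 183 to 269 CPM in 10-PFOS Cyp2b-null females, and the dawn-peaking ones to 35.7 to 55.2 and 35.8 to 58.1 CPM; their part was not tested.

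**Figure D5:**
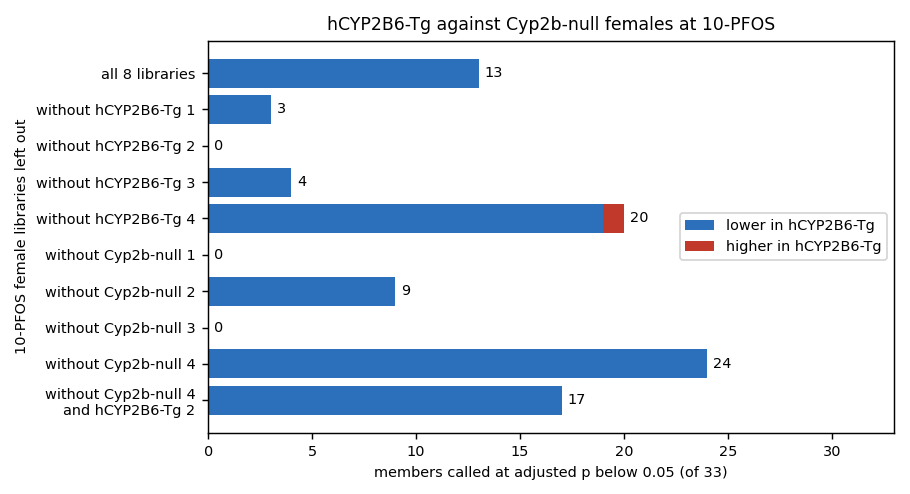
Number of the 33 members called between hCYP2B6-Tg and Cyp2b-null females at 10-PFOS with all 8 libraries and with libraries left out (bars, split by direction). The count is 13 with all libraries and runs from 0 to 24 when 1 library is left out.

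Whether the response to 10-PFOS itself differed between genotypes was asked with an interaction term. No member passed the threshold in females, with 18 of 33 at an unadjusted p below 0.05 (10.3% of all genes), and none did in males, with 10 (8.46% of all genes). Over all genes 0% were called in either sex. The likelihood ratio test of edgeR and the Wald test of DESeq2 each called Angptl8 in females (log2 difference -2.71 and -2.69, adjusted p = 0.005 and 0.0089), and each called Thrsp and Acsl3 in males. The female estimates were negative for 28 of the 33 members, with a median of -0.95, and the male estimates positive for 26, with a median of 0.29, against -0.01 and 0.01 over all genes. At 0-PFOS and at 1-PFOS no member passed the threshold between the genotypes in either sex, and none did between males at 10-PFOS, with 0 to 9 members (5.12% to 11.3% of all genes) at an unadjusted p below 0.05 in these 5 comparisons.

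The response to 10-PFOS was also compared between the sexes in 1 fit of all 48 libraries, as the female minus the male fold change. In hCYP2B6-Tg mice 2 members had a higher and 7 a lower response in females, where 2.75% and 3.75% of all genes did. Elovl3 had the largest difference (5.52 ± 0.57, adjusted p = 1.1e-08), with a fall in males only, and Agpat2 was the other with a higher female value (0.81 ± 0.23). The 7 lower were Aacs (-2.72 ± 0.73), Thrsp (-2.49 ± 0.74), Lpin1 (-2.04 ± 0.60), Acss2 (-1.99 ± 0.51), Acsl3 (-1.85 ± 0.40), Fads2 (-1.16 ± 0.36) and Fads1 (-0.97 ± 0.24), with adjusted p between 0.0041 and 0.039. Whichever library was left out, Elovl3, Acss2, Aacs, Acsl3 and Fads1 remained called. The count was 19 without replicate 2 and 5 without replicate 4 of the 0-PFOS hCYP2B6-Tg females, and 20 without replicate 4 of the 10-PFOS hCYP2B6-Tg females.

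In Cyp2b-null mice Elovl3 was the 1 member whose response differed between the sexes (3.45 ± 0.56, adjusted p = 1.7e-04), where 0.460% of all genes had a higher and 0.490% a lower female response. It remained called under every omission. Without replicate 4 of the 10-PFOS females, Me1 (1.26, adjusted p = 0.023) and Gpam (1.57, adjusted p = 0.0089) were called as well.

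Another 29 genes of the pathway were counted as a list, of which 26 passed the filter in females and 25 in males. At 10-PFOS 10 rose and 3 fell in hCYP2B6-Tg females, 9 and 2 in Cyp2b-null females, 11 and 3 in hCYP2B6-Tg males and 12 and 5 in Cyp2b-null males, to be read beside the shares of all genes given above for these comparisons (22.3% and 24.5%, 19.1% and 17.8%, 24.1% and 23.9%, and 22.5% and 21.6%). Their median log2 fold changes were 0.14, 0.40, 0.31 and 0.15 in that order. Gpat3, an acyltransferase of the endoplasmic reticulum that acts on the same substrate as Gpam, rose in all 4. It was at 59.7, 50.6, 35.3 and 32.6 CPM at 10-PFOS, against 7.54, 13.5, 10.1 and 12.9 CPM at 0-PFOS in hCYP2B6-Tg females (log2 fold change 2.02 ± 0.23, adjusted p = 3.3e-07) and at 49.9, 57.9, 40.1 and 45.4 CPM at 10-PFOS, against 12.7, 12.4, 12.5 and 9.71 CPM at 0-PFOS in Cyp2b-null females (log2 fold change 2.03 ± 0.23, adjusted p = 3.9e-07). In males it was at 34.5, 31.5, 36.2 and 32.1 CPM at 10-PFOS, against 2.80, 1.80, 4.63 and 3.76 CPM at 0-PFOS in hCYP2B6-Tg mice (log2 fold change 3.37 ± 0.33, adjusted p = 1.0e-08) and at 32.5, 28.4, 26.8 and 34.3 CPM at 10-PFOS, against 3.98, 3.0, 8.87 and 2.40 CPM at 0-PFOS in Cyp2b-null mice (log2 fold change 2.74 ± 0.32, adjusted p = 1.9e-07). Gpat3 did not pass the threshold between the female genotypes at 10-PFOS (log2 difference -0.12 ± 0.22, adjusted p = 0.83).

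Pgd, which makes NADPH in the pentose phosphate pathway, rose in all 4 by 1.30 to 1.71. Mogat2, which passed the filter only through 10-PFOS males, was at 0.694 to 1.64 CPM in 10-PFOS hCYP2B6-Tg and 0.778 to 1.55 CPM in 10-PFOS Cyp2b-null males, against 0 to 0.0672 and 0 to 0.221 CPM at 0-PFOS, too few counts for the size of a fold change. The calls of Mogat2 in males, counted among the rises of this list at 10-PFOS and in 1-PFOS hCYP2B6-Tg males, are therefore no separate support. Further changes beyond 1 on the log2 scale at 10-PFOS were a rise of Insig2 (1.69) and a fall of Insig1 (-1.08) in hCYP2B6-Tg females. Lpin3 rose in hCYP2B6-Tg males (1.15), and Lpin3 (1.53) and Acsl4 (1.21) rose in Cyp2b-null males. Elovl7 was at 0.846 to 1.37 CPM in 10-PFOS Cyp2b-null females, against 0.0349 to 0.428 CPM at 0-PFOS, also few counts. Among females it passed the filter only through that 10-PFOS group, so its call there, counted among the rises given above, is no separate support. In 1-PFOS hCYP2B6-Tg males 9 rose and 1 fell (8.72% and 5.98% of all genes), with Gpat3 (1.37) and Mogat2 (0.0895 to 0.456 CPM at 1-PFOS) beyond 1. Between the female genotypes at 10-PFOS, 1 was higher and 2 were lower in hCYP2B6-Tg mice (1.35% and 2.24% of all genes). Among the lower was Pnpla3, a lipid droplet protein under lipogenic control, at 0.392, 0.395, 0.251 and 0.616 CPM in hCYP2B6-Tg females, against 3.96, 0.569, 4.86 and 0.413 CPM in Cyp2b-null females (log2 fold change -2.56 ± 0.69, adjusted p = 0.042).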

How the data were processed

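Liver poly(A) mRNA was sequenced in paired-end mode from 48 mice, and 2 count tables (1 per sex) among 170 files were used. Per the labels and the study's methods, the authors trimmed reads with Trim Galore, checked them with FastQC, aligned them with RSEM to GRCm39 and counted them per gene with featureCounts; the counts were deposited without normalization, and versions and strand setting are unknown here. The other files, which hold the authors' own fold changes and p-values or lists made from them, were not used. For each sex, 25 of 40872 rows were broken across lines and dropped. Of the counts above 0, 91.1% (females) and 91.2% (males) were even, which could mean that both mates of a pair were counted; the tests took the counts as they stand, and a printed count may then stand for fewer read pairs.

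Genes with more than 1 CPM in at least 3 of the 4 libraries of a group were tested with edgeR 4.0.16 (R 4.3.3, limma 3.58.1; TMM, quasi-likelihood test, Benjamini-Hochberg adjustment over all genes), in 1 fit per sex and 1 fit of all 48 libraries for differences between the sexes. DESeq2 1.42.0, the likelihood ratio test, other filters and size factors, fits of the compared groups alone, a block on replicate number and omission of each library were the alternatives, and the omission of a pair of libraries was added after the data were seen. The code was tested on simulated data. Members and lists were chosen with earlier results of these data known. All members are described; those called beyond 1 on the log2 scale in any of 9 comparisons, and Srebf1, Mlxipl, Acaca and Fasn, are given per mouse. Each replicate is a separate mouse. Same-numbered mice correlated by more than 0.1 in every pair between the female genotypes at 1-PFOS only (0.24 to 0.48). Between the male genotypes at 1-PFOS they correlated by 0.09 to 0.30. Such a pairing was found in the data and not in the labels, and the main fits did not use it.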

Additional observations from a re-analysis of the deposited data

Results flagged for a closer look

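Among 276 sets of 4 mice tested for a value apart from the other 3, 11 held one (chance gives about 1 in 20). The high values were Thrsp at 324 CPM in replicate 3 of the 1-PFOS hCYP2B6-Tg females, where the others had 57.0 to 83.1 CPM, Thrsp at 123 CPM in replicate 4 and Angptl8 at 4.97 CPM in replicate 3 of the 10-PFOS hCYP2B6-Tg females, and Elovl3 at 11.8 CPM in replicate 4 of the 1-PFOS hCYP2B6-Tg females. Among control males, Pklr was at 139 CPM in replicate 3 and Lpin1 at 50.1 CPM in replicate 1 of the hCYP2B6-Tg genotype, and Me1 was at 274 CPM in replicate 3 and Agpat2 at 164 CPM in replicate 2 of the Cyp2b-null genotype. The low values were Acaca at 138 CPM and Elovl5 at 119 CPM, both in replicate 1 of the 10-PFOS hCYP2B6-Tg males, and Elovl3 at 169 CPM in replicate 3 of the control hCYP2B6-Tg males.

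The response to 10-PFOS differed between the sexes (female minus male log2 fold change, edgeR's test of the difference) for Elovl3 in Cyp2b-null mice, by 3.45, and for 9 members in hCYP2B6-Tg mice. These were Elovl3 (5.52), Agpat2 (0.81), Aacs (-2.72), Thrsp (-2.49), Lpin1 (-2.04), Acss2 (-1.99), Acsl3 (-1.85), Fads2 (-1.16) and Fads1 (-0.97).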

How the results depend on the processing

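No fold change of a called member turned round under any alternative, and of the values for single members 1610 kept their side of the threshold and 199 lost it. The likelihood ratio test called 2 members at 1-PFOS in females of either genotype, against 1 with the main test, 1 and 2 for the genotype difference in response in females and males, against 0, and 15 for the sex difference in hCYP2B6-Tg mice, against 9. Between the female genotypes at 10-PFOS the likelihood ratio test called 17 and DESeq2 18, against 13. DESeq2 called 2 at 1-PFOS in Cyp2b-null females, and 1 and 2 for the genotype difference in females and males. Fits of the compared groups alone called 2 at 1-PFOS in Cyp2b-null females, 0 at 1-PFOS in Cyp2b-null males and 0 between the female genotypes at 10-PFOS. The filter of more than 1 CPM in every library, which Mogat1 did not pass, called 0 at 1-PFOS in hCYP2B6-Tg females, and no filter called 1 for the genotype difference in males. Omitting both doubted female libraries called 3 for the sex difference in Cyp2b-null mice, against 1. Except where a construction is named, the cause was not tested.

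With 1 library left out in turn, the counts at 1-PFOS ran from 1 to 2 in hCYP2B6-Tg females, 0 to 1 in Cyp2b-null females, 9 to 12 in hCYP2B6-Tg males and 0 to 4 in Cyp2b-null males. At 10-PFOS they ran from 14 to 19, 13 to 18, 18 to 22 and 16 to 21 in the same order. They ran from 0 to 24 between the female genotypes, 0 to 2 (females) and 0 to 0 (males) for the genotype difference, and 5 to 20 (hCYP2B6-Tg) and 1 to 3 (Cyp2b-null) for the sex difference.

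Replicate numbers are shared by label but belong to different mice, and the deviations of same-numbered mice correlated by -0.19 to 0.48 (median 0.01, 23 of 120 pairs over 0.1). In 1 of the comparisons all 4 pairs were over 0.1, that of the female genotypes at 1-PFOS (0.24 to 0.48). Between the male genotypes at 1-PFOS 3 of the 4 pairs were, and in the other comparisons fewer. The main fits had no block, and fits with a replicate block are given beside them. With a replicate block, 18 members were called in 10-PFOS hCYP2B6-Tg females, 15 in 10-PFOS Cyp2b-null females (16 without the block) and 11 between them (13 without). At 1-PFOS the block called 0 members between the female genotypes, in the fit of all females and in that of the 8 libraries, as without it. Between the male genotypes at 1-PFOS (pairs 0.09 to 0.30), where the fit without a block called 0, the block called 1 (Mid1ip1), the 8 libraries alone 1 (Thrsp), and these with the block 5 (Thrsp, Angptl8, Lpin2 and Mid1ip1 higher, Elovl3 lower in hCYP2B6-Tg males); these fits were chosen after the data were seen.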
